A study of Rattus norvegicus with 24 samples.

Results

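The cell cycle and proliferation genes described here are 42 genes named for their part in DNA replication and mitosis, with Cdk1 as their marker. They were chosen by gene symbol: a probe set, which is a group of short probes on the array that together read 1 transcript, was taken as a member where its only symbol in the platform annotation was one of these names. Of the 42 genes, 39 had at least 1 such probe set, out of 14218 genes with a single-symbol probe set on the array. These 39 were read by 52 of the 31042 probe sets that are not controls, and 8 of them by more than 1. Tpx2 and Ndc80 had no single-symbol probe set, and Rrm2 was read only by probe sets that carry several symbols, so no value is given for these 3.

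Total RNA of frozen, gross-dissected midbrain from adult female Long-Evans rats was hybridized to 24 Affymetrix rat genome arrays. Of the arrays, 12 came from gonadally intact rats in proestrus, the cycle stage of sexual receptivity, 6 from ovariectomized (OVX) rats and 6 from ovariectomized and adrenalectomized (OVX/ADX) rats. According to the methods, every OVX and OVX/ADX rat was primed with estradiol benzoate, whereas the intact rats relied on their own hormones, so that surgery and priming cannot be told apart in a comparison of these groups. In each group, one part of the rats had paced mating contact with a male until 1 ejaculation, and the other part was placed in the empty, clean mating chamber, and brains were taken straight afterwards. The intact arrays fall into 2 sets of 6 by their titles, which are plain numbers (number-titled) or Intact-1 to Intact-6 (Intact-titled). Each of the 4 sets (number-titled, Intact-titled, OVX and OVX/ADX) held 3 arrays labelled paced and 3 labelled chamber-exposed. The methods describe 6 intact rats, with 3 in each mating condition, whereas 12 arrays are labelled intact. Neither the labels nor the methods say whether the 2 intact sets come from the same rats, so a fit over the 12 intact arrays may count more arrays than animals. The methods also report the death of 1 OVX/ADX rat before its surgery was finished, and do not say whether it was replaced. The OVX/ADX arrays are titled 4123 to 4126, 2541 and 2530. Titles 2541 and 2530 lie within the numbers of the number-titled intact arrays (2526 to 2543). P-values measure the spread between arrays, 3 in each group of a set. The methods call the chamber-exposed rats yoked controls, but the labels name no pairs. The mating comparisons were fitted without pairs, so a pairing of rats, if present, is not used.

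A dividing cell passes from G1, where D and E cyclins commit it to a new round, into S phase, where the Mcm2 to Mcm7 helicase and the clamp Pcna copy the DNA. Cdk1 with A and B cyclins then drives mitosis, in which kinesins and spindle proteins part the chromosomes, and Cdc20 and Ube2c let the B cyclins be destroyed. In the adult brain nearly all neurons have left the cycle for good, and the cells that still divide are mainly oligodendrocyte progenitors, microglia, vascular cells and the precursors of a few niches. Some members also serve cells that do not divide: Ccnd1 and Ccnd2 are made in glia and neurons, Pcna acts in DNA repair, and Stmn1 regulates microtubules in neurons.

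Cdk1, Top2a, Ccnb2 and Mcm2 are shown with the 250 bases before their start because the results turn on Cdk1 and Mcm2 and because the motifs of mitotic and replication genes are found among them. The sequences are those of RefSeq on the rat assembly GRCr8, on which 31 of the 42 members had 1 promoter window. Cdkn3 had 2 windows and was left out, and 10 members had none. Capitals mark a CCAAT box (CCAAT), a cell cycle homology region or CHR (TTTGAA or TTCGAA), and an E2F motif (TTTCGCGC, TTTGGCGC or GGCGGGAA), each read on both strands.
Cdk1, chr20:19265043-19265292, plus strand: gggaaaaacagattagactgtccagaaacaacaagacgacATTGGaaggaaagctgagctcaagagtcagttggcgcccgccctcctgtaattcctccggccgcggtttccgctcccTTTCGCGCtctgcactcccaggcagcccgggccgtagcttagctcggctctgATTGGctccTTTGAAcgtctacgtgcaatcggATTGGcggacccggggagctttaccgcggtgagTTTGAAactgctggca
Top2a, chr10:84473094-84473343, minus strand: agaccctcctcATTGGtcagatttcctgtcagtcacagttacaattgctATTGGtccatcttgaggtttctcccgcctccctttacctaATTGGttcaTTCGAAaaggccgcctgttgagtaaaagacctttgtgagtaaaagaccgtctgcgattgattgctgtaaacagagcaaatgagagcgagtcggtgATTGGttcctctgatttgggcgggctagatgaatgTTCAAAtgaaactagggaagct
Ccnb2, chr8:79981659-79981908, minus strand: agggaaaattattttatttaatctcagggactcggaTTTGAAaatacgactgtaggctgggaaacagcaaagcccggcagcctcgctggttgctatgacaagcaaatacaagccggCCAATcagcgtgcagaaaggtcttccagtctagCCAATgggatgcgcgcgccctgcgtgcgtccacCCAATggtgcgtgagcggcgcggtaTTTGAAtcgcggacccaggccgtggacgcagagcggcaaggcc
Mcm2, chr4:122918095-122918344, minus strand: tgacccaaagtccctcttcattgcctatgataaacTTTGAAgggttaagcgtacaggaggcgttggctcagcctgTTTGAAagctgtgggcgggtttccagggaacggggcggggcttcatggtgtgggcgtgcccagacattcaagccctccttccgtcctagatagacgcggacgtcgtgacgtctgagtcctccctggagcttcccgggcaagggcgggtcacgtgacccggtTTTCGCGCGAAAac

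The Cdk1 window held 3 CCAAT boxes, 2 CHR motifs, the nearest starting 16 bases before the start, and 1 E2F motif. Top2a, the topoisomerase that untangles sister chromatids, held 4 CCAAT boxes and 2 CHR motifs, and the B cyclin gene Ccnb2 held 3 and 2. Mcm2, a subunit of the replicative helicase, held no CCAAT box but 2 CHR motifs, as many as each of the mitotic genes shown, and Cdk1 shares the E2F motif with it. Its 2 E2F matches overlap in a single palindrome that starts 14 bases before the start. Over the 31 members with a window, 22 held a CCAAT box (71%, against 34% of all 33469 promoters), and 17 held 2 or more (54.8%, against 9.42%). A CHR motif was present in 12 (38.7%, against 17.4% of all promoters), and an E2F motif in 7 (22.6%, against 2.15%). The members with an E2F motif were Cdk1, Mcm2, Mcm5, Mcm6, Mcm7, Stmn1 and Tyms. Mki67, the gene of the nuclear proliferation antigen, had 4 CCAAT boxes and 2 CHR motifs. Such matches describe the letters only, and binding was not measured.

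Signals of tissue markers were not uniform across sets. Th, the rate-limiting enzyme of dopamine synthesis and a defining midbrain marker, had log2 signals of 9.95 to 11.47 on the number-titled and 9.05 to 10.46 on the OVX/ADX arrays. It had 5.69 to 7.22 on the Intact-titled and 5.75 to 8.60 on the OVX arrays. Camk2a, a kinase abundant in cortex and hippocampus, ran the other way, with 12.78 to 13.46 on the Intact-titled and OVX arrays and 7.83 to 9.20 on the others. Not every marker followed its list. The cortical marker Tbr1 was lower on the Intact-titled and OVX arrays, at most 4.23 against at least 4.62 on the others. Nr4a2, listed with the dopamine neurons, was higher there, at least 9.35 against at most 9.19. The lowest signals per array show that the Intact-titled and OVX arrays were normalized together, and the number-titled and OVX/ADX arrays each apart. Levels of the members are therefore not compared across these 3 inferred runs. The marker signals of different runs are set side by side here as a description only, without a test. Transcripts of the anterior pituitary gave high signals on the number-titled arrays and, to differing extents, on the OVX/ADX arrays. Cga, the shared subunit of the glycoprotein hormones, had 12.86 on the OVX/ADX array 2541 and 11.71, 11.28 and 9.82 on arrays 4124, 4125 and 4126, against 4.38 to 5.01 on the arrays of the shared run. The summed signal of 10 pituitary markers was 15.65 to 15.74 on the number-titled chamber-exposed arrays and 12.002 to 14.99 on the paced ones. On the OVX/ADX arrays it was 11.21 to 12.94 in the chamber-exposed and 11.09 to 15.50 in the paced group, and it was 10.66 to 10.88 on all arrays of the shared run. The array Intact-1 also stood apart in the members themselves, as described below.

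Most cell cycle genes gave low signals in these brains, while a small group gave high ones. A member's position was expressed as its percentile among all probe sets of the same array, which also depends on how well its probes bind, so positions do not rank transcript amounts between genes. The median member lay at percentile 34.4 on the number-titled, 35.2 on the Intact-titled, 36.3 on the OVX arrays and 31.0 on those of OVX/ADX rats. Of the 39 members, 29 lay under the 50th percentile in all 4 sets. Genes of other organs (testis, muscle, liver, pancreas and kidney markers, 12 genes) had median percentiles of 12.6 to 17.4. They are not a strict floor, because some of them passed the filter on low signals described below. The highest of them lay at percentile 53.3 on the number-titled, 62.3 on the Intact-titled and 53.4 on the OVX arrays. In all 4 sets the highest of them lay above the median member, so that position alone does not separate members from background.

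**Figure D1:**
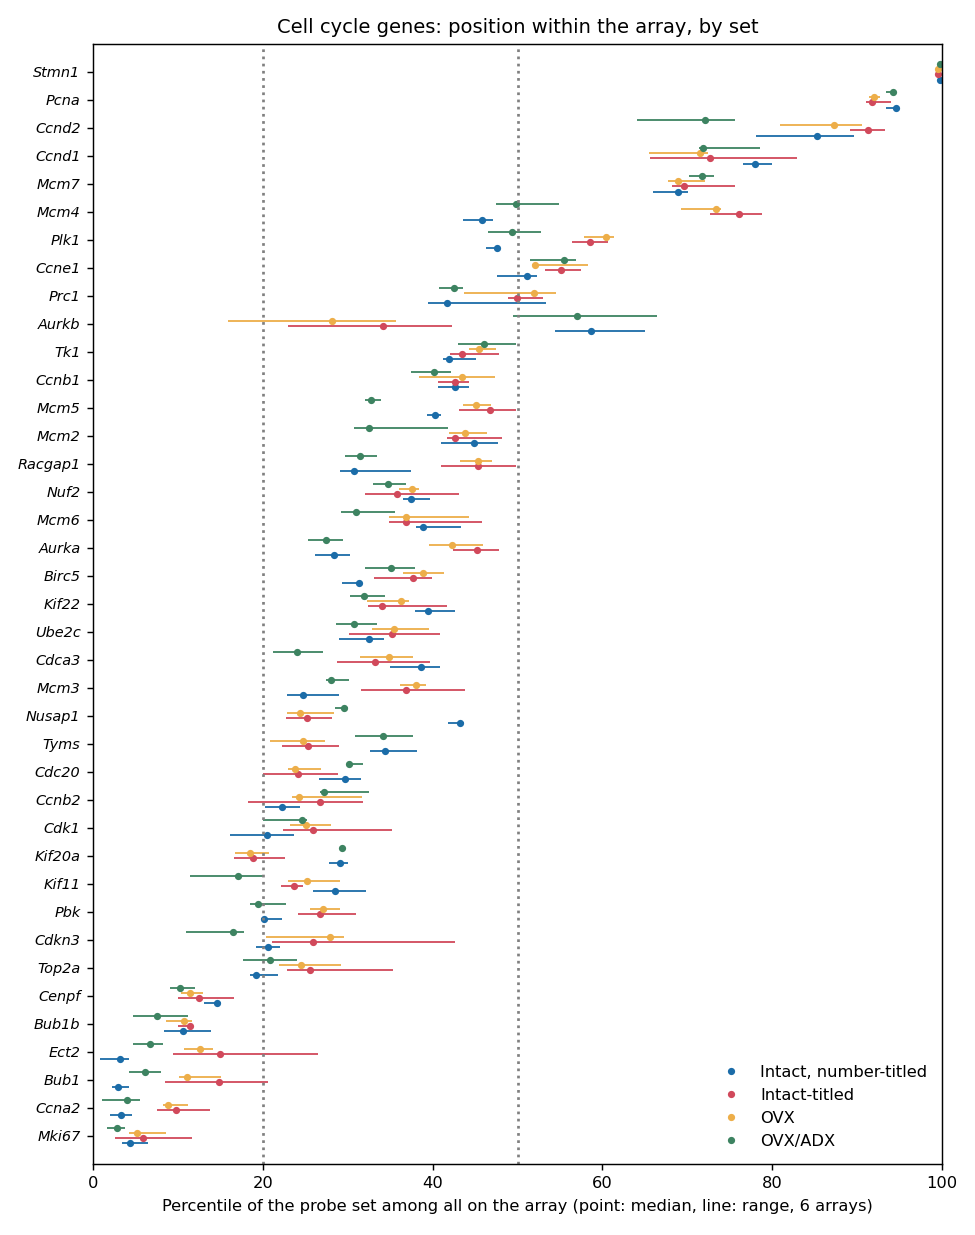
Within-array percentile of the probe set of each of the 39 measured members (rows, ordered by position) in the 4 sets, with points for the median and lines for the range of the 6 arrays of a set and dotted lines at the 20th and 50th percentiles. Pcna and Stmn1 lie above the 80th percentile in every set, and Bub1, Bub1b, Ccna2, Cenpf, Ect2 and Mki67 lie under the 20th in every set.

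The lowest positions belonged to 6 mitotic genes that lay under the 20th percentile in all 4 sets: Mki67, Ccna2 (the S and G2 cyclin), Bub1 and Bub1b (spindle checkpoint kinases), Cenpf (a kinetochore protein) and Ect2 (the exchange factor that triggers cytokinesis). Mki67 had log2 signals of 4.54, 4.55 and 4.35 on the chamber-exposed and 4.37, 4.40 and 4.33 on the paced number-titled arrays. On the Intact-titled arrays it had 3.58, 4.0 and 3.65 in the chamber-exposed and 4.21, 3.22 and 3.34 in the paced group. The paced and chamber-exposed values of Mki67 overlapped in both intact sets. In the OVX set it ran from 3.43 to 3.97 with a median of 3.57, and in the OVX/ADX set from 3.88 to 4.04 with a median of 3.98. Its median percentile was 4.30 on the number-titled, 5.91 on the Intact-titled, 5.13 on the OVX arrays and 2.83 on those of OVX/ADX rats, below the median of the genes of other organs in each set. Ccna2 ran from 4.16 to 4.42 on the number-titled, 3.78 to 4.40 on the Intact-titled, 3.92 to 4.22 on the OVX arrays and 3.78 to 4.17 on those of OVX/ADX rats. These 6 genes did not pass the filter on low signals (the 20th percentile of the array on at least 3 of the 24 arrays), and the other 33 members did.

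At the other end, 6 members lay at or above the 50th percentile in all 4 sets: Ccnd1, Ccnd2, Ccne1, Mcm7, Pcna and Stmn1. Stmn1 ran from 13.04 to 13.20 on the number-titled, 12.80 to 13.15 on the Intact-titled, 12.82 to 13.20 on the OVX arrays and 12.89 to 13.03 on those of OVX/ADX rats, with median percentiles of 99.5 to 99.8. Pcna ran from 10.78 to 11.01, 10.47 to 10.91, 10.44 to 10.65 and 10.28 to 10.50 in the same order of sets, with median percentiles of 91.8 to 94.5. Both lay near the top of every array. Ccnd1, the cyclin that starts G1 progression, ran from 9.09 to 9.36 on the number-titled, 8.22 to 9.62 on the Intact-titled, 8.21 to 8.70 on the OVX arrays and 8.32 to 8.81 on those of OVX/ADX rats. Its range was widest on the Intact-titled arrays. A further 4 members, Aurkb, Mcm4, Plk1 and Prc1, lay above the 50th percentile in some sets and below it in others.

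Among the mitotic genes of intermediate position, Cdk1 had median percentiles of 20.5 on the number-titled, 25.9 on the Intact-titled, 25.0 on the OVX arrays and 24.7 on those of OVX/ADX rats. Top2a ran from 5.32 to 5.50 on the number-titled, 5.17 to 6.04 on the Intact-titled, 5.17 to 5.70 on the OVX arrays and 4.88 to 5.23 on those of OVX/ADX rats. Ccnb1, the other main B cyclin, ran from 6.71 to 6.95, 6.46 to 6.66, 6.34 to 6.90 and 6.12 to 6.44 in that order. Its median percentile differed little between sets, at 40.2 to 43.5.

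Positions of some members, like those of many other probe sets, differed between the arrays with high Camk2a (Intact-titled and OVX) and the other arrays, all of which had higher Th. The shares below were not tested, and nothing particular to the members is read from them. Percentiles on the 12 Intact-titled and OVX arrays were all above those on the other 12 arrays for 10 of 39 members (25.6%, against 19.7% of all probe sets), namely Aurka, Bub1, Ccna2, Ect2, Mcm3, Mcm4, Mcm5, Pbk, Plk1 and Racgap1. They were all below for 5 (12.8%, against 18.9%), namely Aurkb, Kif20a, Nusap1, Stmn1 and Tyms. Mcm4, a helicase subunit, had a median percentile of 73.5 on the shared-run arrays and 47.3 on the others. The kinase of the chromosome passenger complex, Aurkb, had 29.9 and 58.2. These arrays differ in gland treatment, brain region markers and inferred normalization run at once, and these cannot be told apart. In bulk tissue, fewer cells of a type and less RNA per cell cannot be told apart either.

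The first question of the study was whether mating changes midbrain transcripts in intact rats, and no member passed the threshold. In the number-titled set, limma called 0 of the 33 members at an adjusted p under 0.05 (12 of 27035 probe sets were called, 0.0444% of all), as did the plain per-probe-set test and limma with trend and robust options. At an unadjusted p under 0.05, 2 members were below that limit by each of these 3 tests, against 9.33% of all probe sets by limma. The median member differed by −0.03 on the log2 scale, beside 0.01 over all probe sets, with 13 members higher and 20 lower on the paced arrays.

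Those 2 members were Mcm2 and Cdk1. Mcm2 had log2 signals of 7.20, 7.20 and 7.10 on the chamber-exposed arrays 2526, 2536 and 2539, and 6.72, 6.71 and 6.91 on the paced arrays 2543, 2538 and 2531. The groups did not overlap, and the lowest chamber-exposed array lay above the highest paced one. The difference was −0.38 ± 0.07 (SE; means 7.17 ± 0.06 and 6.78 ± 0.12, SD, n = 3 each), with adjusted p = 0.14 from limma. Cdk1 had 5.62, 5.54 and 5.47 on the chamber-exposed and 5.33, 5.15 and 5.28 on the paced arrays, again without overlap. Its difference was −0.29 ± 0.07 (SE), with adjusted p = 0.231 from limma. By the deposited labels this direction is opposite to the one in which the study lists Cdk1. The pituitary hormone transcripts of this set also run opposite to the study's list. Whether the mating labels of the set were exchanged was not tested, and every mating difference in it would change sign if they were. The study picked Cdk1 from intact arrays of this series, so its difference is not independent evidence.

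**Figure D2:**
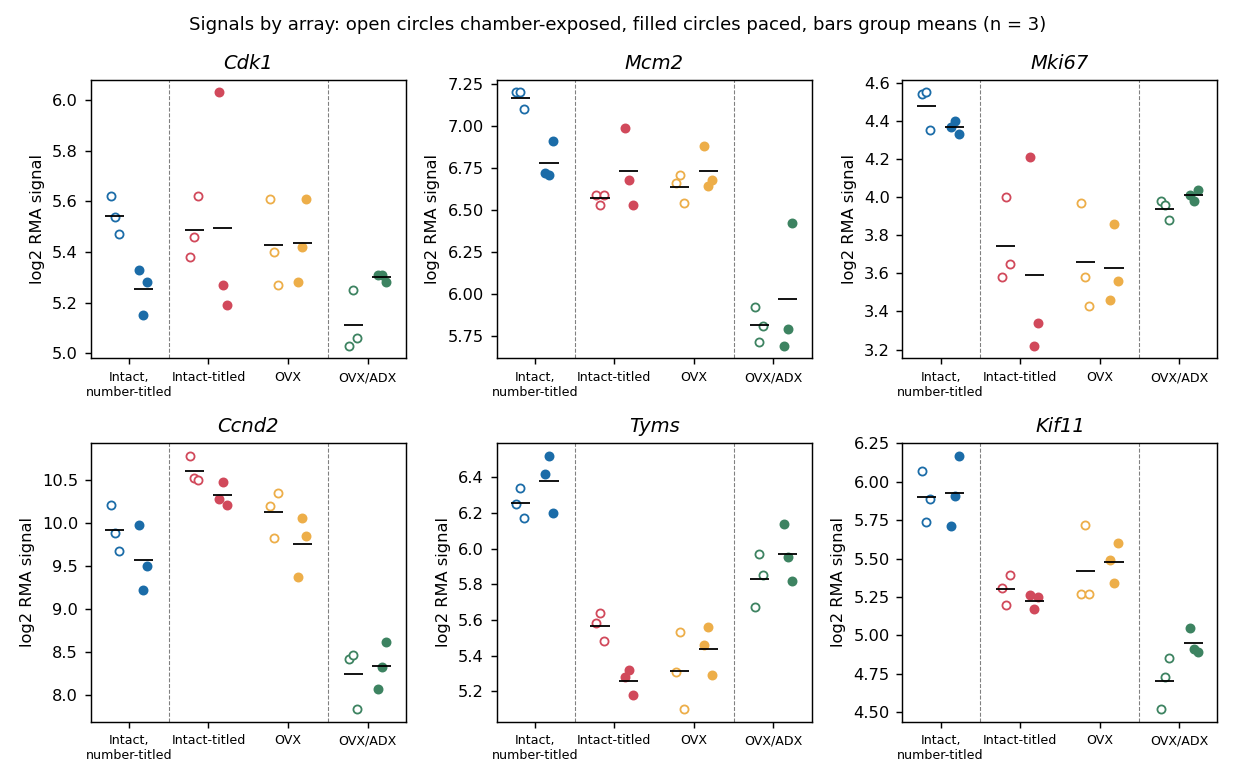
Log2 signal of Cdk1, Mcm2, Mki67, Ccnd2, Tyms and Kif11 on each array, with open circles for chamber-exposed and filled circles for paced arrays, bars for the mean of the 3 arrays of a group, and dashed lines between inferred normalization runs. Mcm2 and Cdk1 separate the labels on the number-titled arrays, Tyms and Ccnd2 on the Intact-titled arrays and Cdk1 and Kif11 on the OVX/ADX arrays, and Mki67 in no set.

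Values on the paced arrays lay wholly below those on the chamber-exposed arrays for 5 of 39 members (12.8%, against 7.81% of all probe sets): Mcm2, Mcm6, Cdk1, Pbk (a mitotic kinase) and Cdc20. They lay wholly above for Ccnb1 alone (2.56%, against 6.82%). By role, 6 of the 7 replication genes were lower on the paced arrays, with a median of −0.10. So were 3 of the 4 ubiquitin ligase and Cdk regulator genes, also with a median of −0.10. The medians of the other roles ran from −0.07 to 0.08. Of the 10 pituitary markers, 9 had an unadjusted p under 0.05 between the same groups, all lower on the paced arrays, and 1 of them, Fshb, was called by limma. Of 5 markers of meninges and fibroblasts, 4 (Dcn, Col3a1, Col1a2 and Col1a1) were likewise lower at that limit, with a median of −0.85, as was Nr4a2 among 6 markers of dopamine neurons. No marker of oligodendrocyte progenitors, neural progenitors, microglia, endothelium, choroid plexus or cortex had an unadjusted p under 0.05. The part of these tissues in the differences of Mcm2, Cdk1 and the other members was not tested. Side by side, Prl, the pituitary hormone prolactin, had 14.29, 14.26 and 14.20 on the chamber-exposed arrays and 9.89, 5.50 and 13.93 on the paced arrays 2543, 2538 and 2531. Mcm2 was highest of the paced arrays on 2531, which also had the highest Prl of the paced arrays. In the OVX/ADX set, array 2541 had 14.36 for Prl and 6.42 for Mcm2, while the other 5 arrays had 4.62 to 7.89 for Prl and 5.69 to 5.92 for Mcm2. Mcm6 was also highest there, at 5.99 against 5.60 to 5.73, but Cdk1 was not, at 5.28 within a range of 5.03 to 5.31. This pairing of Mcm2 with Prl was chosen after their values were seen.

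**Figure D3:**
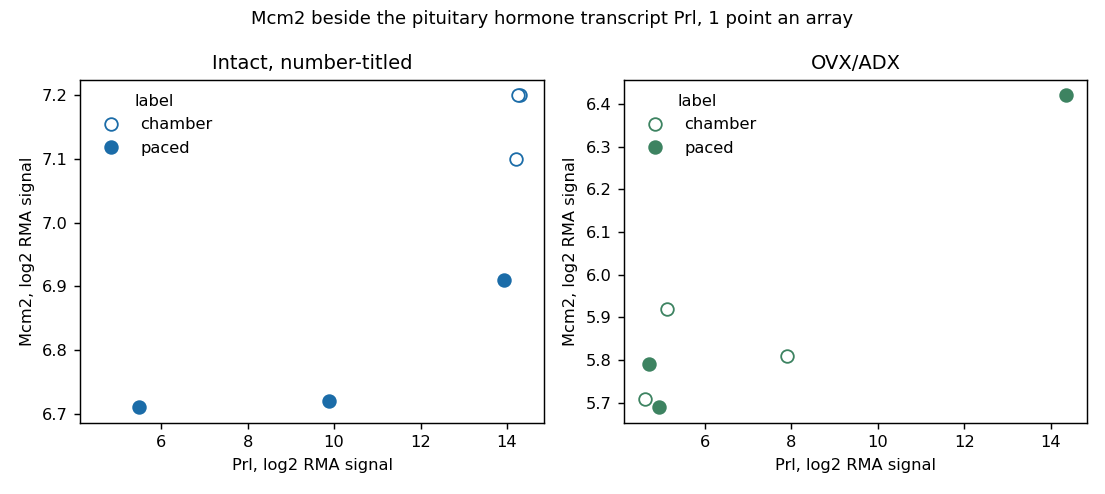
Log2 signal of Mcm2 (vertical) against that of Prl (horizontal) on the 6 number-titled and the 6 OVX/ADX arrays, with 1 point per array, open for chamber-exposed and filled for paced. Array 2541, at 14.36 for Prl, has the highest Mcm2 of its set at 6.42, and the 3 number-titled chamber-exposed arrays have both Prl and Mcm2 above the paced ones.

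In the Intact-titled set limma again called 0 of 33 members (4 of 27035 probe sets were called, 0.0148%), and 2 had an unadjusted p under 0.05, against 8% of all probe sets. The plain test gave 1 and limma with trend and robust options gave 3, with 0 called by either. Tyms, thymidylate synthase of the deoxynucleotide supply, had 5.58, 5.64 and 5.48 on the chamber-exposed and 5.28, 5.32 and 5.18 on the paced arrays, without overlap. Its difference was −0.30 ± 0.09 (SE), with adjusted p = 0.491 from limma. Ccnd2, the cyclin D2 of G1, had 10.78, 10.52 and 10.50 on the chamber-exposed and 10.28, 10.47 and 10.21 on the paced arrays. The groups lay close to each other without overlap, and the difference was −0.28 ± 0.12 (SE; adjusted p = 0.624 from limma). These 2 were the members that lay wholly lower on the paced arrays (5.13% of 39, against 6.1% of all probe sets), and Stmn1 alone lay wholly higher (2.56%, against 7.29%).

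Cdk1 had 5.38, 5.46 and 5.62 on the chamber-exposed and 6.03, 5.27 and 5.19 on the paced Intact-titled arrays. The paced values therefore lay on both sides of the chamber-exposed ones, and the difference was 0.01 (adjusted p = 0.995 from limma). Without Intact-1 it was −0.26 (adjusted p = 0.572). Mcm2 had 6.59, 6.53 and 6.59 on the chamber-exposed and 6.99, 6.68 and 6.53 on the paced arrays, with a difference of 0.16 ± 0.13 (SE).

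The array Intact-1, labelled paced, had the highest signal of its 6 arrays for 26 of the 39 members (66.7%, against 23.1% of all probe sets). This array was singled out after the values were seen. Its median member lay 0.33 above the median of the other 5 arrays, while the median over all probe sets lay at −0.01. Cdkn3, a phosphatase acting on Cdk1 and Cdk2, was 6.57 there against 5.08 to 5.75 on the others. Ect2 was 5.43 against at most 4.70, and Ccnd1 was 9.62 against 8.22 to 9.0. Mcm6 was 6.80 against at most 6.30, Cdk1 6.03 against 5.19 to 5.62, and Top2a 6.04 against 5.17 to 5.64. Other leads were very small, as for Stmn1 (13.1532 against at most 13.1527) and Ccnb1 (6.6606 against at most 6.6557).

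By role, Intact-1 was highest for 6 of 7 replication genes, 7 of 10 mitotic cyclins and kinases, 5 of 9 spindle and cytokinesis genes, and 3 of 4 ubiquitin ligase and Cdk regulator genes. It was highest for both chromosome genes (Mki67 and Top2a) and both kinetochore genes (Cenpf and Nuf2). It was highest for 1 of 3 G1 cyclins and for neither Tyms nor Tk1, the genes of deoxynucleotide supply. Tk1 and Plk1 had their lowest signal there. On the same array, 4 of 5 markers of oligodendrocyte progenitors were highest, with Sox10 at 10.12 against at most 9.35 and Olig1 at 12.11 against at most 11.69. So were 3 of 3 choroid plexus markers, 4 of 6 dopamine neuron markers (Th at 7.22 against at most 6.0) and 3 of 6 markers of neural progenitors. The same held for 3 of 6 markers of microglia and 1 of 5 of endothelium. Some of these leads were very small, such as Ttr of choroid plexus at 14.506 against at most 14.499 and Pdgfra at 10.865 against at most 10.851. The choroid plexus markers were nearly as high on Intact-2 (Ttr 14.50, Folr1 8.15 and Kl 6.05). None of the 6 cortical and 5 meningeal markers was highest on Intact-1. The part of these cell types in the members' signals was not tested.

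**Figure D4:**
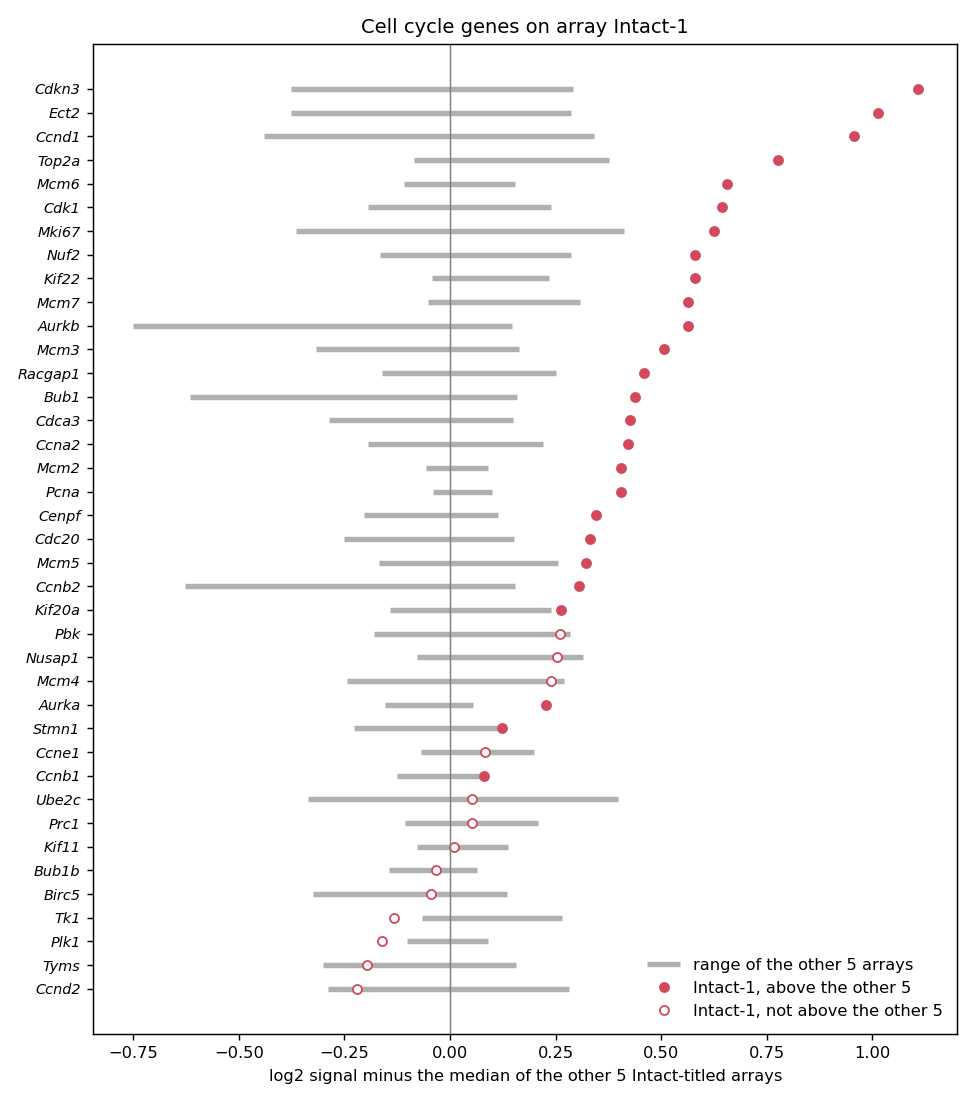
Log2 signal of each of the 39 members on Intact-1 minus the median of the other 5 Intact-titled arrays, ordered by size, with grey bars for the range of the other 5 arrays and filled points where Intact-1 lies above it. The largest difference is that of Cdkn3 at 1.11, and 26 members lie above the range of the other arrays.

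The array farthest the other way was Intact-5, also labelled paced, with 16 of 39 members lowest (41%, against 17.8% of all probe sets). In the number-titled set, the chamber-exposed array 2526 was highest for 14 members (35.9%, against 16.8% of all probe sets). Leaving out Intact-1 turned the median member difference of the Intact-titled set from 0.04 to −0.11, with 23 of 33 members lower on the paced arrays. An unadjusted p under 0.05 was then given by 5 of 33 members, against 8.82% of all probe sets, each lower on the paced arrays: Aurkb (−0.67), Ccnd1 (−0.62), Ccnb2 (−0.52), Ube2c (−0.39) and Tyms (−0.31). The smallest adjusted p among them was 0.37 from limma, with 2 paced arrays remaining. Intact-1 was picked for its high members, so its removal lowers the paced side by construction, and no conclusion is drawn from this. Without the paced array Intact-3 the median was 0.11, with 22 members higher on the paced arrays. Without Intact-5 it was 0.10, with 23 higher. With all arrays kept, the other probe sets of Ccnd1 gave 0.30 and 0.18, against −0.15 for the representing one.

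Within sets, the median SD of the members was above that of all probe sets in 3 of the 4, a description with no test. The median SD of the passed members within groups was 0.195 on the Intact-titled arrays (0.150 over all probe sets), 0.151 on the OVX arrays (0.125) and 0.118 on the OVX/ADX arrays (0.0967). On the number-titled arrays it was 0.0906, beside 0.0909. The widest members were Cdkn3 on the Intact-titled arrays, Aurkb on the OVX and OVX/ADX arrays and Prc1, a crosslinker of the central spindle, on the number-titled arrays.

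With both intact sets in 1 model and the set as a term, in which the 12 arrays may not be 12 animals, limma called 0 of 33 members and 0 probe sets (0%), with 2 members at an unadjusted p under 0.05, against 7.72% of all. The plain test gave 3 and limma with trend and robust options 2, with none called. They were Ccnd2, at −0.32 (adjusted p = 0.617), and Ube2c, the ubiquitin-conjugating enzyme of the anaphase-promoting complex, at −0.22 (adjusted p = 0.621). Ube2c had 6.29, 6.18 and 6.14 on the chamber-exposed and 6.16, 5.92 and 6.09 on the paced number-titled arrays. On the Intact-titled arrays it had 6.47, 6.10 and 6.07 on the chamber-exposed and 6.12, 5.92 and 5.73 on the paced arrays. The groups overlapped in both sets. The mating difference of Mcm2 itself was compared between the 2 intact sets: it differed by −0.55 (number-titled minus Intact-titled), with adjusted p = 0.21 from limma, a comparison in which 0.0814% of probe sets were called and 10.6% had an unadjusted p under 0.05. Tyms differed the other way, by 0.43 (adjusted p = 0.245). No member was called there by limma or either other test, each of which gave 2 members at an unadjusted p under 0.05.

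The second question was whether mating acts without ovaries or adrenals. In OVX rats, limma called 0 of 33 members and 0 probe sets (0%), and 0 members had an unadjusted p under 0.05, against 2.42% of all probe sets. The plain test gave 0 such members and limma with trend and robust options 1. Cdk1 had 5.61, 5.40 and 5.27 on the chamber-exposed and 5.28, 5.42 and 5.61 on the paced OVX arrays. The ranges were nearly the same, with a difference of 0.01 ± 0.12 (SE; adjusted p = 1.0). Ccnd2 had 10.20, 9.83 and 10.35 on the chamber-exposed and 9.37, 10.06 and 9.85 on the paced arrays, which overlapped, with a difference of −0.37 ± 0.20 (SE; adjusted p = 1.0). Only the kinesin Kif20a lay wholly lower on the paced arrays (2.56% of 39, against 3.91% of all) and only Cenpf wholly higher (2.56%, against 2.83%).

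In OVX/ADX rats, limma called 0 of 33 members and 0 probe sets (0%), with 2 members at an unadjusted p under 0.05, against 2.47% of all probe sets. The plain test gave 0 and limma with trend and robust options 2, with none called. Cdk1 had 5.03, 5.25 and 5.06 on the chamber-exposed and 5.31, 5.31 and 5.28 on the paced arrays. The paced values lay together just above the highest chamber-exposed one, with a difference of 0.19 ± 0.07 (SE) and adjusted p = 1.0 from limma. Kif11, the kinesin that holds spindle poles apart, had 4.52, 4.73 and 4.85 on the chamber-exposed and 5.05, 4.91 and 4.89 on the paced arrays, without overlap. Its difference was 0.25 ± 0.09 (SE; adjusted p = 1.0), but its other passed probe set gave −0.03. Kif11 was low in this set, while it was at least 5.17 on every array of the other sets. Its lowest percentile over the number-titled and OVX/ADX arrays was 11.4. The filter on low signals counts all 24 arrays, so a member can pass it through other sets. On the 4 arrays titled 4123 to 4126 alone, Cdk1 differed by 0.17 (adjusted p = 0.632) and Kif11 by 0.35 (adjusted p = 0.582). Cdk1 and Kif11 were the members whose paced values lay wholly higher (5.13% of 39, against 2.82% of all probe sets), and none lay wholly lower (against 3.97%).

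The mating difference of Cdk1 in OVX/ADX rats minus that in number-titled intact rats was 0.47 ± 0.10 (SE), with adjusted p = 0.365 from limma. In that comparison 0% of probe sets were called and 7.51% had an unadjusted p under 0.05. Mcm2 differed by 0.53 (adjusted p = 0.604) and Pbk by 0.19 (adjusted p = 0.664), so that 3 members were below the unadjusted limit and 0 were called. Between OVX and Intact-titled rats, 0.0074% of probe sets were called and 4.96% had an unadjusted p under 0.05. Tyms was the single member below that limit there, at 0.43 (adjusted p = 0.943 from limma). The plain test and limma with trend and robust options also called 0 members in both comparisons, with 2 and 2 members below the limit in the former and 1 and 1 in the latter.

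**Figure D5:**
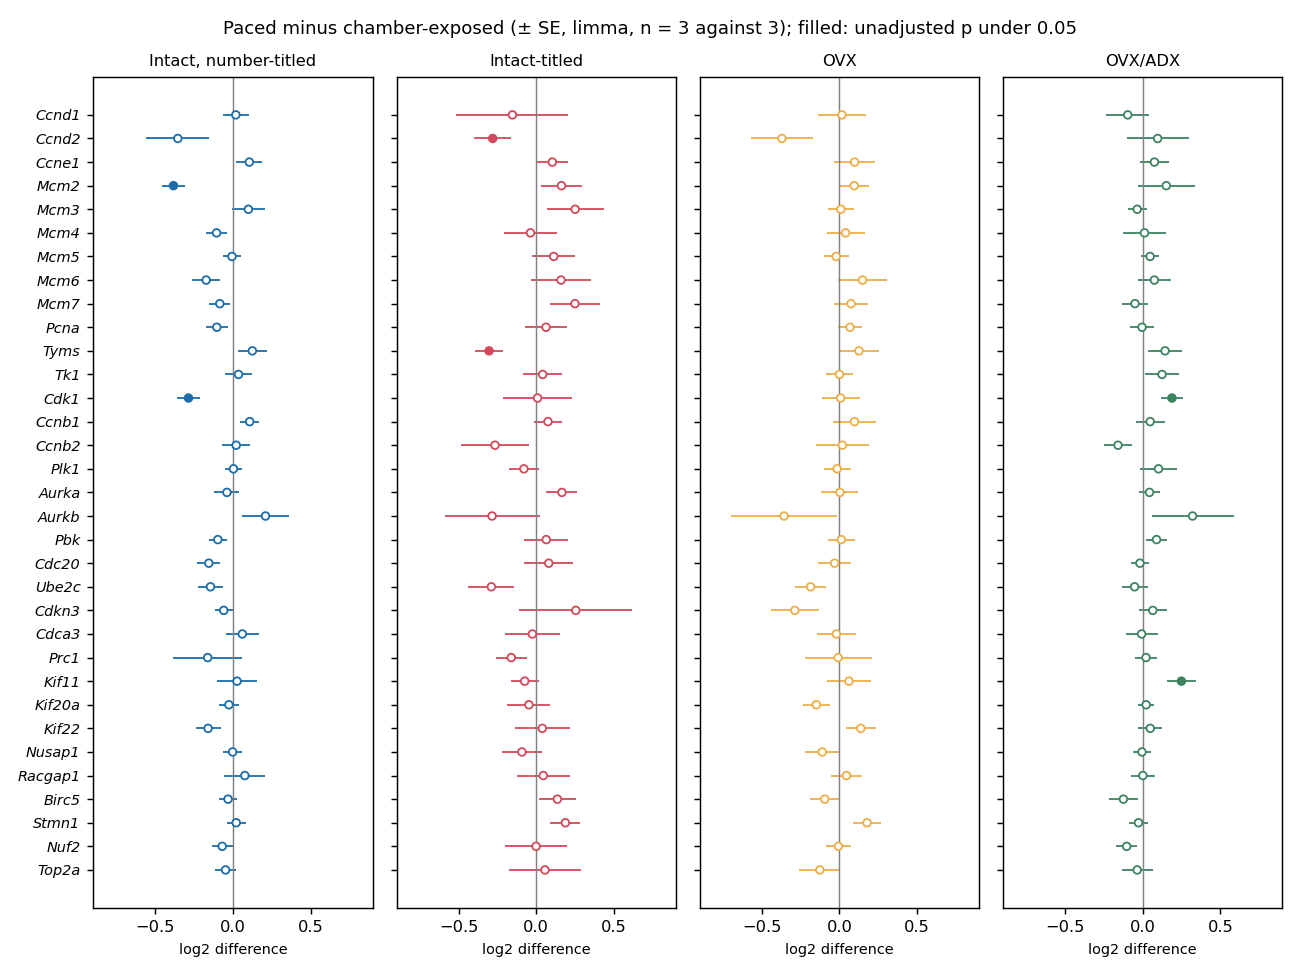
Log2 difference, paced minus chamber-exposed, of each of the 33 passed members (rows, by role), with 1 panel per set, bars for the SE, a line at 0 and filled points for an unadjusted p under 0.05. Ccnb1, Ccne1 and Racgap1 lie above 0 and Nuf2, Nusap1 and Ube2c below 0 in all 4 sets, and the other 27 members change side between sets.

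Across the 4 sets, Ccnb1, Ccne1 (cyclin E1) and Racgap1 (a regulator of the cytokinetic furrow) had higher means on the paced arrays in each set. Nuf2 (a kinetochore protein), Nusap1 (a spindle protein) and Ube2c had lower means in each, and 27 of the 33 members had mixed signs. Some of these signs rest on very small differences. Racgap1 differed by 0.0008 on the OVX/ADX and Nuf2 by −0.001 on the Intact-titled arrays. Nusap1 differed by −0.0022 on the number-titled and −0.0052 on the OVX/ADX arrays. The share of all probe sets with the same sign in every set is not given, so no shared direction is read from these members. Ccnb1 differed by 0.11 on the number-titled, 0.08 on the Intact-titled, 0.10 on the OVX arrays and 0.05 on those of OVX/ADX rats. The other passed probe set of Ccnb1 gave −0.00, −0.21, 0.08 and −0.09 in the same order, so its direction rests on 1 probe set. That of Nusap1 gave 0.08 on the Intact-titled arrays, where the representing one gave −0.09. Ube2c differed by −0.14, −0.29, −0.19 and −0.05 in that order. Over all 24 arrays with the set as a term, under the same limit on the intact arrays, limma called 0 of 33 members and 0 probe sets (0%), and 3 members had an unadjusted p under 0.05, against 4.19% of all probe sets. The plain test gave 2 and limma with trend and robust options 3, with none called. Ube2c differed by −0.17 ± 0.06 (SE), Ccnd2 by −0.23 ± 0.11 and Stmn1 by 0.09 ± 0.04, each with adjusted p = 0.969 from limma. The 6 members under the filter on low signals, tested without that filter, gave 0 unadjusted p under 0.05 in the 10 comparisons.

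Gland state was compared between the 6 Intact-titled and the 6 OVX arrays, which share the inferred run. Their titles carry different codes, so gland state and title code cannot be told apart. The largest difference among members was that of Ccnd2. It had a lowest, median and highest log2 signal of 10.21, 10.49 and 10.78 on the intact arrays, and of 9.37, 9.95 and 10.35 on the OVX arrays. OVX-6, at 10.35, reached into the intact range. OVX minus intact was −0.51 ± 0.12 (SE; means 10.46 ± 0.20 and 9.95 ± 0.35, SD, n = 6 each), with adjusted p = 0.0579 from limma. The adjusted p ranged from 0.0474 to 0.147 over the alternatives. It fell under 0.05 with the filter at the 50th percentile (0.0481), with the title number as a replicate block (0.0481) and without OVX-6 (0.0474). OVX-6 had the highest Ccnd2 of the OVX arrays, so its removal enlarges the difference by construction. Whether the title numbers pair the arrays is not known. No conclusion is drawn from these 2 alternatives.

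By limma 0 of 33 members were called (388 of 27035 probe sets were, 1.44%), and 3 had an unadjusted p under 0.05, against 21% of all probe sets. The plain test and limma with trend and robust options each gave 2 such members and called 0. Besides Ccnd2, these were Mcm4, at −0.29 ± 0.11 (SE; adjusted p = 0.157; 8.74 to 9.25 on the intact and 8.45 to 8.82 on the OVX arrays), and Kif11, at 0.19 ± 0.08 (SE; adjusted p = 0.233; 5.17 to 5.39 and 5.27 to 5.72). The ranges of both overlapped. No member separated the 2 groups without overlap, in either direction (against 0.754% of all probe sets higher and 1.63% lower in OVX). Cdk1 was 5.49 ± 0.30 on the intact and 5.43 ± 0.15 on the OVX arrays (SD, n = 6 each; adjusted p = 0.835 from limma). The Intact-titled and OVX arrays share low Th and high Camk2a, and only OVX-4, with 8.60, came near the Th signals of the other sets. Some markers of other cell types had an unadjusted p under 0.05 between these groups by limma, as did 21% of all probe sets, and none was called. Nothing particular to the markers is read from this. Higher on the OVX arrays were Col1a2 and Lum of meninges, P2ry12 and Cx3cr1 of microglia, Slco1a4 of endothelium and Ddc of dopamine neurons, and lower were Nr4a2, Nrgn of cortex and Sox11 of immature neurons. Markers of a list did not all go the same way. Itgam, also of microglia, ran from 5.52 to 5.79 on the intact and from 5.24 to 5.64 on the OVX arrays. The part of these cell types in the difference of Ccnd2 was not tested.

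Other genes of the pathway were taken from lists of cell cycle regulators beyond the members (95 listed, 82 measured, 71 passed). Limma called none of the 71 in any of the 10 comparisons. On the number-titled arrays, 1 was higher and 9 were lower on the paced arrays at an unadjusted p under 0.05 (14.1%, against 9.33% of all probe sets). They included the Cdk inhibitors Cdkn2c, Cdkn2d and Cdkn1b, the arrest genes Ccng1, Btg1 and Mdm2, the G1 genes Ccnd3 and Cdc25a, the checkpoint kinase Chek1 and the spindle gene Aspm. On the Intact-titled arrays 2 were higher and 1 lower (4.23%, against 8% of all probe sets), and on the OVX arrays 2 and 0 (2.82%, against 2.42%). On the OVX/ADX arrays 3 were higher and 1 lower (5.63%, against 2.47%), and in OVX against intact rats 1 and 4 (7.04%, against 21%).

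Where a member had several probe sets, the one with the highest mean signal represents it. The 5 members with more than 1 passed probe set (12 probe sets in all) gave opposite signs in 14 of 25 pairs of gene and comparison, over the 4 mating comparisons within sets and the comparison of intact with OVX rats. None of their other probe sets had an unadjusted p under 0.05.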

How the data were processed

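Signals are log2 values that the authors deposited, made by RMA in Affymetrix Expression Console 1.4 per the labels, whereas the paper's methods name GCRMA. They were used as deposited, and all 24 arrays were mapped to groups by their labels. Of 31099 probe sets, 57 controls were left out, and 27035 were tested, which had a signal no lower than the array's 20th percentile on 3 or more arrays. Of the probe sets, 20832 carry 1 gene symbol. A gene is represented by its passed probe set with the highest mean signal.

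Differences were fitted in R 4.3.3 with limma 3.58.1 (linear model and eBayes) in 10 comparisons, with Benjamini-Hochberg adjustment over all 27035 probe sets and a threshold of 0.05. The fit was tested on simulated data. The plain per-probe-set test, near to the one the methods name, was an alternative, also with their 2-fold limit. A summed marker signal is the log2 of the sum of the linear signals. Array values are given for Cdk1, for members of each role, by array or as ranges, and for members with an unadjusted p under 0.05. The members, gene lists and this rule were chosen with earlier results of these data known. The number of arrays limits the precision. Promoter letters were searched in RefSeq windows (GRCr8). Tables were read with Python 3.11.15, pandas 2.3.3 and numpy 2.4.6.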

Additional observations from a re-analysis of the deposited data

Results flagged for a closer look

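In 14 named members and 4 sets of 6 arrays, the lowest or highest array was set against the others, which gave 56 tests. The gap to the nearest array, as a share of the range of the set, was over Dixon's critical value in 5 of the 56, and chance gives about 1 in 20. Top2a was 5.50 on the number-titled chamber-exposed array 2526 against 5.32 to 5.35 on the others, a gap of 0.839 of the range. Ccna2 was 3.78 on the OVX/ADX paced array 4123 against 4.03 to 4.17, a gap of 0.656. On Intact-1, Pcna was 10.91 against 10.47 to 10.61 (0.688) and Mcm2 was 6.99 against 6.53 to 6.68 (0.684). Mcm2 was 6.42 on the OVX/ADX array 2541, which also carried high Prl, against 5.69 to 5.92 (0.682). What sets these arrays apart was not tested.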

How the results depend on the processing

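Over the alternatives (filter, normalization, test, probe set summary, terms and leaving out arrays), no member was called in the mating comparisons or in the differences between them. In the comparison of intact with OVX rats 1 member, Ccnd2, was called with the filter at the 50th percentile and with the replicate block, and without OVX-6 (0 to 1 over the arrays left out). The count of called probe sets depended more on the setting. On the number-titled arrays it went from 12 to 5 (50th percentile filter), 2 (quantile normalization), 19 (medians subtracted) and 0 and 0 (plain test, without and with the 2-fold limit), and to 2 to 58 without single arrays, with 55 without 2531 and 58 without 2539. On the Intact-titled arrays 4 became 0 and 0 with the plain tests, and 1 to 15 without single arrays (15 without Intact-1). Between intact and OVX rats 388 became 84 and 2 with the plain tests, and 0 (without OVX-4) to 443 (without OVX-6). With both intact sets in 1 model it was 0 to 1 without single arrays. The difference between OVX and Intact-titled rats gave 2, and 1 with both plain tests and with the block, and 1 to 9 without single arrays. That between the intact sets gave 22, then 43 (medians subtracted), 4 and 4 (plain tests), and 9 to 346 (346 without Intact-5, 330 without Intact-6). That between OVX/ADX and number-titled rats gave 0 to 25 (25 without 2541).

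The median member difference was −0.13 between intact and OVX rats with the 50th percentile filter, and 0.054 between OVX/ADX and number-titled rats with no filter and with mean probe sets. Without single arrays it ran from −0.11 (without Intact-1) to 0.11 (Intact-titled), 0.0059 (without 2541) to 0.040 (OVX/ADX), −0.13 to 0.037 (between the intact sets) and 0.024 to 0.075 (OVX/ADX against number-titled). Cdk1 changed sign without single arrays, from −0.26 to 0.16 on the Intact-titled and from −0.080 to 0.099 on the OVX arrays. The cause of these changes was not tested.

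The Intact-titled and OVX arrays share the title numbers 1 to 6. Correlations of same-numbered arrays, after group means were removed, were 0.31, 0.07, 0.04, 0.02, 0.05 and 0.17. Without correlations of differently numbered arrays beside them, these values do not settle whether the numbers pair the arrays. With this replicate block, 375 probe sets and 1 member were called between intact and OVX rats, and no other call of a member changed.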
